A study of Mus musculus with 14 samples.

Results

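Of the 14531 entries in the table, 62 were protein-coding genes with a heat shock or cytosolic chaperonin symbol, and their RNA levels are described here. They were chosen by symbol, with earlier results of these data known. The choice took the Hsp genes, the Dnaja, Dnajb and Dnajc genes and the subunits of the chaperonin TRiC, and left out Hspa5, Hsp90b1 and Dnajc3, which belong to the unfolded protein response of the endoplasmic reticulum. The 62 fall into 12 genes of the Hsp70 and Hsp110 family, 2 of the Hsp90 family, 3 small heat shock protein genes, Hspbp1, 2 genes of the mitochondrial chaperonin, 7 TRiC subunits, and 3 Dnaja, 9 Dnajb and 23 Dnajc genes. The word cytosolic does not hold for all of them. By a list of locations drawn up for this report, 8 encode mitochondrial proteins and 9 encode proteins of the endoplasmic reticulum, which leaves 45 others. The list may be incomplete, and Dnajc14 is among the others. Hspa1b, Hspb1 and Dnaja3 were not analysed here. Cct6a was not taken up, because the choice took Cct symbols that end in a digit. The table lists it as a processed transcript.

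The libraries came from the hypothalamus of male C57BL/6N mice, which carried no transgene or deletion per the labels. At 10 weeks of age the mice were fed for 3 days with either high-fat (HFD) or control food (NCD). Each library stands for 1 pool of 8 hypothalami. Input libraries hold RNA of the lysate, and IP libraries hold RNA precipitated with an antibody against phosphorylated ribosomal protein S6, a mark of activated cells. Control diet gave 3 libraries of each fraction, and high-fat diet gave 4 of each. Libraries are named by group and by the column index, which runs from 0, because the columns do not carry the replicate numbers of the labels. An unspecific antibody was not part of the data analysed here, so RNA carried along without phosphorylated ribosomes cannot be told apart. In bulk RNA, fewer cells of a type and less RNA per cell cannot be told apart either.

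Chaperones bind unfolded proteins and let them fold or be degraded. Hsp70 proteins do so in a cycle of ATP hydrolysis, in which J-domain proteins (the Dnaj genes) hand over the client and start hydrolysis, and Hsp110 proteins exchange the nucleotide. Hsp90 acts later on kinases and receptors, and TRiC encloses actin and tubulin in a ring. Several of these genes are switched on by heat shock factor Hsf1, which binds DNA at inverted repeats of the pentamer NGAAN, the heat shock element. In neurons, the Hsp70 and J-domain pair of Hspa8 and Dnajc5 is known for its work at synaptic vesicles, and Dnajc6 for removing clathrin from vesicles.

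The windows before the start of 6 members are printed to show which carry such repeats. A pair of repeats was searched as GAANNTTC or TTCNNGAA, and a run of 3 repeats as GAANNTTCNNGAA, on both strands. The run of 3 contains both forms of the pair. Promoter windows of 300 bases (250 before and 50 after the start) were taken from RefSeq on GRCm38.p6, and 50 members had one. Capitals mark the repeats in the 250 bases before the start, written from 5′ to 3′ on the strand of the gene. Hspe1 is at chr1:55087898-55088147 (+), Hsph1 at chr5:149636316-149636565 (-), Dnajb6 at chr5:29735648-29735897 (+), Hspa1a at chr17:34972157-34972406 (-), Tcp1 at chr17:12916079-12916328 (+) and Hspa4 at chr11:53300480-53300729 (-).
Hspe1: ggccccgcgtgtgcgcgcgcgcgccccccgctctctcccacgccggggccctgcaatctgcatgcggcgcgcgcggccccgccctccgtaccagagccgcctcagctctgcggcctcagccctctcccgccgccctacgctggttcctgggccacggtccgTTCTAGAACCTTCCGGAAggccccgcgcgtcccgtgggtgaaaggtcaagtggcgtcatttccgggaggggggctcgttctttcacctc
Hsph1: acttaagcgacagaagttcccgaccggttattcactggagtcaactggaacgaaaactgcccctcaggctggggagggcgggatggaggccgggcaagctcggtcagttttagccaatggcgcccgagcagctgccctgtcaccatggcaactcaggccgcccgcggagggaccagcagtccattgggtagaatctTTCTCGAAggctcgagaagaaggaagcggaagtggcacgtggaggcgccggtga
Dnajb6: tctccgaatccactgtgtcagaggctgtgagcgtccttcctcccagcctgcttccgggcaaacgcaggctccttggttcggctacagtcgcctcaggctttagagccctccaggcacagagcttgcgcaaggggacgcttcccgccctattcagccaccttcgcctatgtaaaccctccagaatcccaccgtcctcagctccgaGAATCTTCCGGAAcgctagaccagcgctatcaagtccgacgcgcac
Hspa1a: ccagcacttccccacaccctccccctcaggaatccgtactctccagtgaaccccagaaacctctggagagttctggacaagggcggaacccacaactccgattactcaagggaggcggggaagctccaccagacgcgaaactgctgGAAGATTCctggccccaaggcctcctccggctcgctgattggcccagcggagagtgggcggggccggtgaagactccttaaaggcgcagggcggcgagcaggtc
Tcp1: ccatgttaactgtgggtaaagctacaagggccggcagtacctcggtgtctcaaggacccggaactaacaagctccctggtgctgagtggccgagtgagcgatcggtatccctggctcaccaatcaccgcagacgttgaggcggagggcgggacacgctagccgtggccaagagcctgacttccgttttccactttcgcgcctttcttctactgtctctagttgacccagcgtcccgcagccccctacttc
Hspa4: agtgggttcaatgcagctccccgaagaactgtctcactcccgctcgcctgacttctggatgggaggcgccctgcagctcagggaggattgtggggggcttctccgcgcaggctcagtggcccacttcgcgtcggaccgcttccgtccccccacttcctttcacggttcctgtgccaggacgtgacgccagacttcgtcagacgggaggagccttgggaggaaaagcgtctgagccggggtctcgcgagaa
Some members had several starts, so the 50 members had 69 windows. A run of 3 repeats was found in 6 of these windows (8.70%), which belong to Hspd1, Hspe1, Hsph1 and Dnajb6, and in 0.603% of all 32851 windows in the table. A pair was found in 16 member windows (23.2%), against 15.1% of all windows. These belong to 14 members, among them Dnaja1, Dnajb4, Hspb6, Hspb8, Cct2, Cct5 and Hspa1a. Hspd1 and Hspe1 lie on opposite strands with overlapping ends. The run printed for Hspe1 also lies in the window of 1 of the 2 starts of Hspd1, and the window of the other start held no repeat pair. In Hsph1 the run of 3 lies after the start, and the pair printed is a separate match. Hsph1 and Dnajb6 each had overlapping windows that held the same run, so the 8.70% counts shared runs more than once. The windows of Tcp1 and Hspa4 held neither pattern. A match in these letters is a description and not a binding site.

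In input, the genes of the family spanned a wide range of levels, given as FPKM, fragments counted for a transcript, relative to its length and to the size of the library. Mean input FPKM was at least 100 for 5 members, from 10 to 100 for 35, from 1 to 10 for 21, and below 1 for Hspa1a. The 5 highest were Hsph1, which encodes an Hsp110 exchange factor, the 2 cytosolic Hsp90 genes Hsp90aa1 and Hsp90ab1, the constitutive Hsp70 gene Hspa8, and Dnaja1, a J-domain partner of Hsp70. Over the 7 input libraries Hsph1 ranged from 231 to 292 FPKM, Hsp90aa1 from 213 to 290.5, Hsp90ab1 from 189.7 to 242, Hspa8 from 163 to 199 and Dnaja1 from 101 to 146. Each of the first 4 overlapped with its neighbour in this order, whereas Dnaja1 lay below every Hspa8 value. These 5 members held 46.8% to 49.0% of the summed FPKM of all 62 in input and 36.7% to 52.4% in IP. The sum itself was 2032 to 2298 FPKM in input and 2303 to 3532 in IP.

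**Figure D1:**
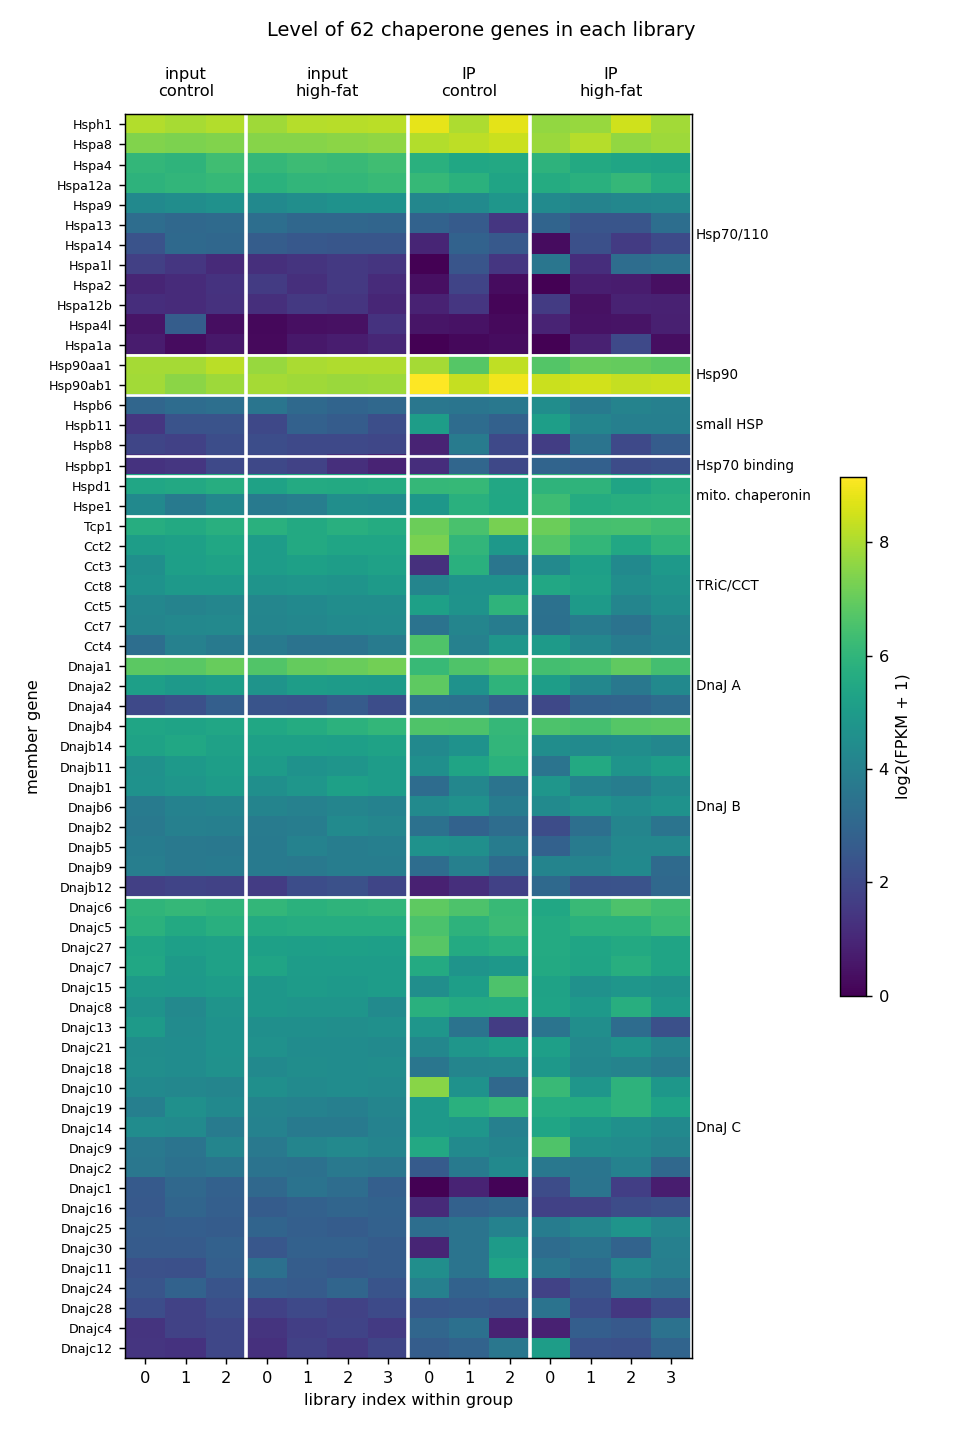
Heat map of log2(FPKM + 1) for the 62 members (rows, by family and falling input level) in the 14 libraries (columns, by fraction, diet and index). In input Hsph1, both Hsp90 genes, Hspa8 and Dnaja1 lie above 100 FPKM, Hspa1a has the lowest mean, and IP columns of a group differ more from each other than input columns.

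Hspa1a, the classical stress-inducible Hsp70 gene on chromosome 17 at 34969190 to 34972156, was close to the bottom of the table. Its input FPKM was 0.641, 0.229 and 0.516 on control diet and 0.166, 0.501, 0.652 and 0.983 on high-fat diet. In IP it was listed at 0 in the library of index 0 on each diet, at 0.145 and 0.230 in the other control-diet libraries and at 0.811, 3.01 and 0.274 in the other high-fat ones. Only the IP library HFD 2 exceeded 1 FPKM. Hspa1a and Hspa4l had a mean below 1 FPKM over the 14 libraries and were not tested, which left 60 members among 12478 tested genes. Hspa1b, a near copy of Hspa1a, can share reads with it, so the level of Hspa1a is uncertain.

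IP libraries varied more than input libraries. The median SD of a member within a group was 0.17 in input and 0.54 in IP on the scale of log2(FPKM + 1), against 0.18 and 0.69 over all tested genes. The share of summed FPKM from mitochondrially encoded genes was 23.5% to 39.1% in input libraries and 2.66% to 15.6% in the others, and 0.771% to 10.9% of entries were listed at 0 in IP. The IP libraries of index 0 were highest in both measures on either diet. Cell type markers differed between the fractions too. Of 5 tested neuronal markers 4 were higher in IP, with a summed level of 5059 to 6042 FPKM in input and 7874 to 14245 in IP. This count depended on the scaling. With quantile normalization 2 neuronal markers were higher and 3 lower, and scaled without mitochondrially encoded genes 2 were higher and 1 lower. All 5 tested astrocyte markers were lower, from 319 to 407 FPKM summed in input to 96.9 to 211 in IP, and 4 of 6 markers of mature oligodendrocytes were lower, from 997 to 1293 to 420 to 743. Of 6 choroid plexus markers 5 were higher (18.1 to 114 FPKM summed in input, 257 to 1405 in IP), as were 4 of 5 blood cell markers (11.6 to 27.3 against 147 to 718). No marker of these 5 lists was at 0 in any IP library, whereas 2 of 3 endothelial markers in the table were at 0 in at least 1. Their part in the results on chaperones was not tested. The 5 hypothalamic markers in the table summed to 81.3 to 134 FPKM in input and 162 to 391.6 in IP, with 3 of 5 higher in IP, although 3 were at 0 in at least 1 IP library and 1 in an input library. After correction for transcript length 1 of these 5 was higher and 1 lower.

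The comparison of IP with input asks which chaperone messages were over- or under-represented on phosphorylated ribosomes. Over both diets, 17 of the 60 tested members were higher in IP, 9 were lower and 34 did not pass (limma on log2(FPKM + 1), adjusted p below 0.05). The background was 43.9% of all tested genes, 23.4% higher and 20.5% lower, so the members were called at about the rate of other genes. The median log2 change of the members was 0.31, against 0.00 over all genes. This median turned to -0.11 with quantile normalization, where 13 members were higher and 23 lower. It turned to -0.24 when libraries were scaled without mitochondrially encoded genes, where 8 were higher and 22 lower. Of all 12478 genes, quantile normalization called 50.2% (2828 higher, 3439 lower), and scaling without mitochondrially encoded genes 53% (1753 higher, 4863 lower). These backgrounds also belong to the counts given below for these settings over both diets. The median of all genes moved to -0.43 without mitochondrially encoded genes, so the members still lay above it, whereas with quantile normalization all genes had a median of -0.05. The direction of a single member is therefore given below with these settings where it turned. In 13 members every IP library lay above every input library within either diet (background 14.6%), and Hspa4 was the only member below in both diets (background 10.2%). The count of lower members fell to 5 when any of the input libraries HFD 2, HFD 3, NCD 1 or NCD 2 was left out, and the count of higher ones was 14 to 24 when any library was left out. Calls held in all 24 or 25 alternative settings run for Dnajc11, Dnajc12, Dnajc25, Hspe1 and Tcp1 among the higher genes and for Dnajb1, Dnajc1, Hsp90aa1 and Hspa4 among the lower ones.

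**Figure D2:**
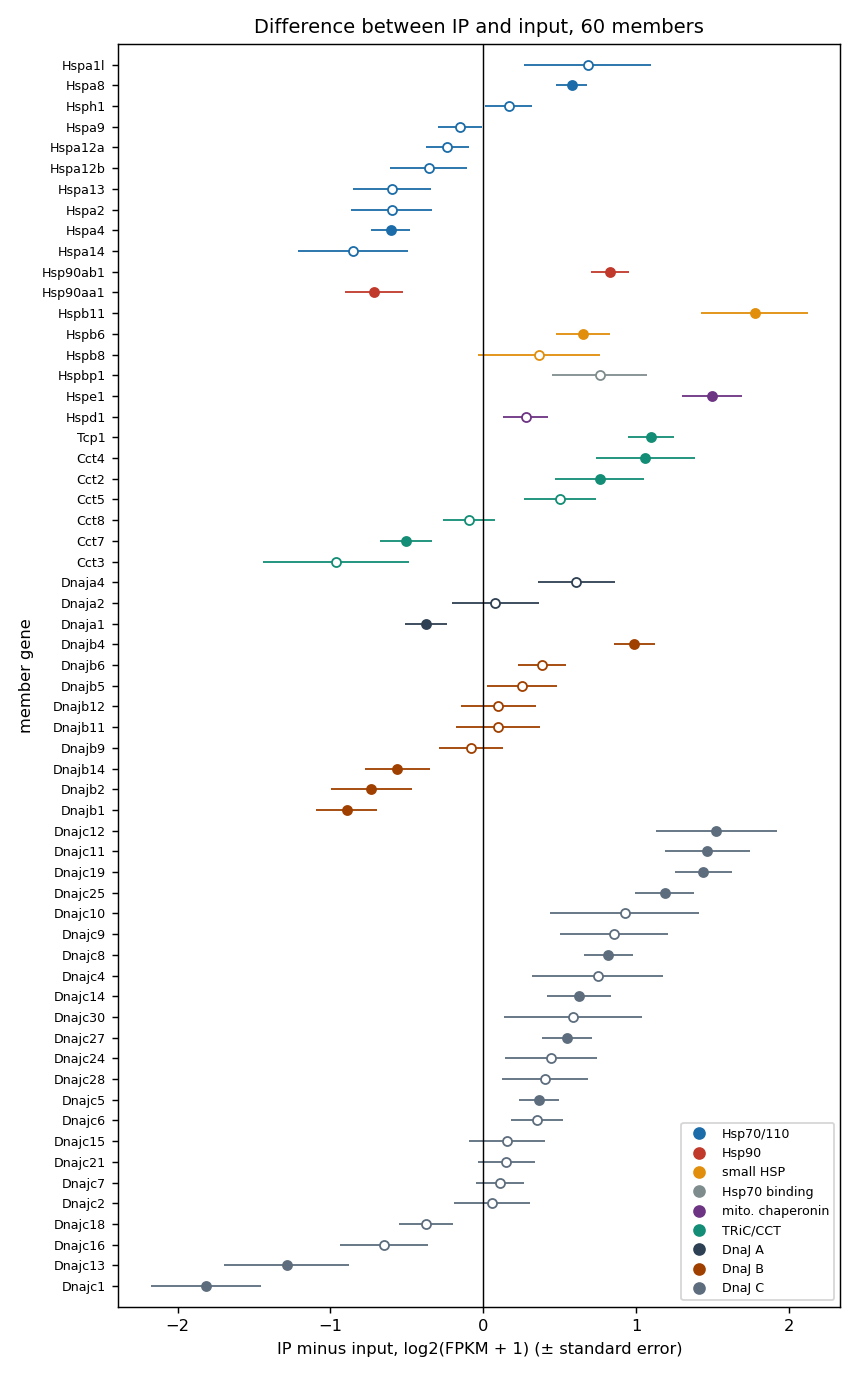
Log2 change from input to IP over both diets for the 60 tested members, with its standard error, ordered by size within each family (colour). Filled points passed the threshold, 17 to the right of 0 and 9 to the left.

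Within the Hsp70 and Hsp110 family, Hspa8 was higher and Hspa4 lower, and the other 8 tested members did not pass. Hspa8 FPKM on control diet was 170.5, 163 and 171 in input and 274, 302 and 339.7 in IP, and on high-fat diet 177, 180.2, 186 and 199 in input and 218, 279, 203 and 221 in IP. The fractions did not overlap on either diet, and the control-diet IP libraries held 3 of the 4 highest values. The log2 change was 0.58 ± 0.10 (standard error, adjusted p = 0.00031), and it turned to -0.55 with quantile normalization, where Hspa8 passed as lower. Hspa4, which encodes an Hsp110 exchange factor, lies on chromosome 11 at 53259814 to 53300457. Its FPKM was 65.6, 61.4 and 79.7 in input and 55.1, 42.3 and 45.4 in IP on the control diet, and 67.2, 75.5, 73.2 and 79.5 against 58.6, 46.0, 41.1 and 38.3 on high-fat diet. Every IP library lay below every input library, with a log2 change of -0.61 ± 0.13 (adjusted p = 0.0013). Hsph1, the relative of Hspa4 with the highest input level of the family, was at 274, 246 and 271 FPKM in input and 443, 262 and 431 in IP on control diet. On high-fat diet it was at 231, 282, 289 and 292 in input and 202, 214, 359 and 234 in IP. The fractions overlapped on both diets, and it did not pass (0.17 ± 0.15, adjusted p = 0.41). Hspa9, the mitochondrial Hsp70 gene, had a log2 change of -0.15 ± 0.14, and Hspa12a, an atypical Hsp70 gene, one of -0.24 ± 0.14. With quantile normalization 7 of the 10 tested family members were lower, and 8 when libraries were scaled without mitochondrially encoded genes.

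The Hsp90 genes went in opposite directions. Hsp90ab1, the constitutive gene on chromosome 17, was at 233, 189.7 and 222 FPKM in input and at 566, 324 and 489 in IP on control diet. On high-fat diet it was at 242, 226, 217 and 223 in input and at 339.9, 368, 322 and 344 in IP. The fractions did not overlap, and the log2 change was 0.83 ± 0.12 (adjusted p = 6.1e-05). It turned to -0.36 with quantile normalization, where Hsp90ab1 passed as lower. Hsp90aa1, the heat-inducible gene on chromosome 12, was at 238, 242 and 290.5 FPKM in input and 239, 107 and 308 in IP on control diet. On high-fat diet it was at 213, 251, 266 and 267 in input and at 103, 130.1, 127 and 113 in IP. The fractions overlapped on control diet and were apart on high-fat diet, and the log2 change was -0.72 ± 0.19 (adjusted p = 0.0060). The ratio of the genes within a library does not depend on a scaling factor for that library. Hsp90ab1 over Hsp90aa1 was 0.765 to 0.976 in input and 1.59 to 3.04 in IP on the control diet, and 0.814 to 1.14 against 2.53 to 3.30 on high-fat diet. No IP library overlapped with an input library in this ratio, which was chosen after the values were seen and was not tested.

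**Figure D3:**
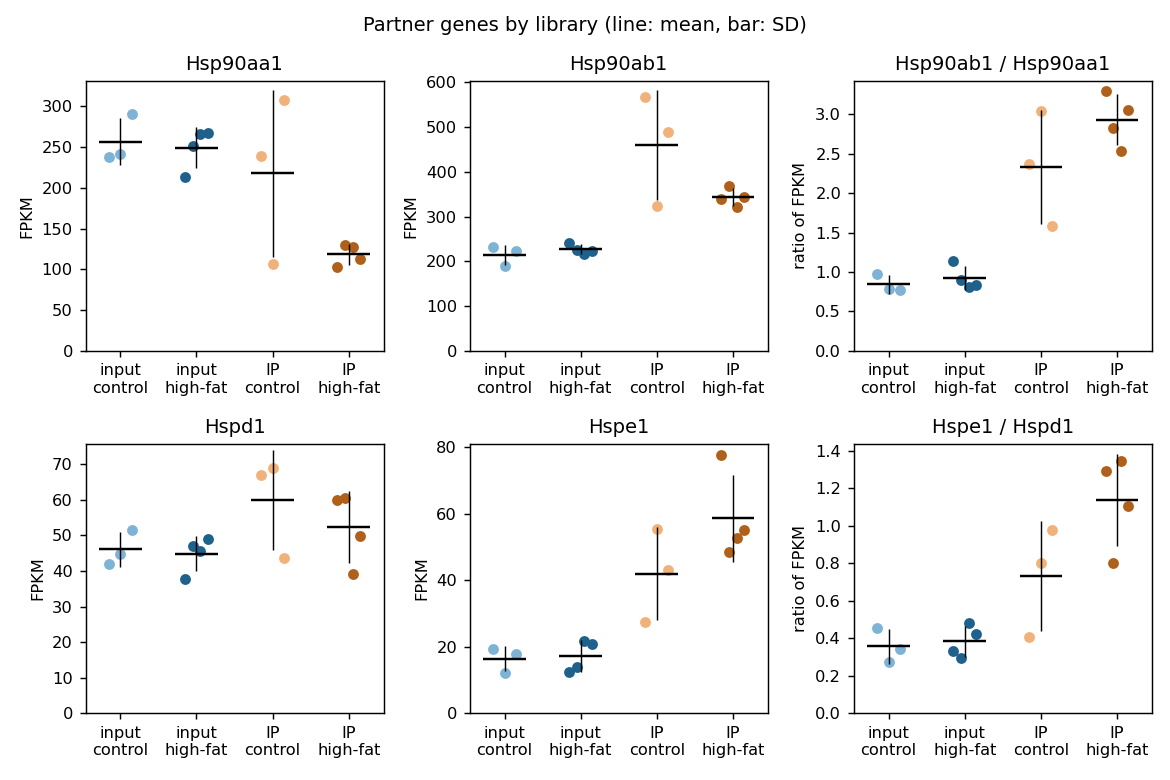
FPKM by library of the Hsp90 pair and of the mitochondrial chaperonin pair, with their ratios, where lines are means and bars are SD. Hsp90ab1 over Hsp90aa1 is at most 1.14 in input and at least 1.59 in IP.

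The mitochondrial chaperonin is made of a barrel (Hsp60, from Hspd1) and a lid (Hsp10, from Hspe1), and of the pair Hspe1 was higher in IP. Hspe1 FPKM was 19.2, 12.2 and 17.8 in input and 27.4, 55.4 and 42.9 in IP on the control diet, and 12.5, 13.99, 21.8 and 20.8 against 77.7, 48.6, 52.8 and 55.0 on high-fat diet. The fractions were apart on both diets, with the IP library NCD 0 closest to input, and the log2 change was 1.49 ± 0.20 (adjusted p = 2.2e-05). Hspd1 was at 42.0, 44.8 and 51.4 FPKM in input and 67.1, 69.0 and 43.8 in IP on the control diet, and at 37.8, 47.1, 45.5 and 49.0 against 60.1, 60.4, 39.3 and 49.7 on high-fat diet. The fractions overlapped, and it did not pass (0.28 ± 0.15, adjusted p = 0.14). Hspe1 over Hspd1 was 0.272 to 0.479 in input and 0.409 to 1.34 in IP, where the IP library NCD 0 held the lowest value and overlapped with input. The difference between the genes was not tested. GENCODE names 6 pseudogenes after Hspe1 and 5 after Hspd1. The exons of the pair overlap on opposite strands, and the library kit does not mark strand, so reads from the shared stretch cannot be assigned.

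Among the 8 mitochondrial members, 3 were higher, 0 lower and 5 did not pass, and the median log2 change was 0.49. Quantile normalization gave 3 higher and 2 lower, and scaling without mitochondrially encoded genes gave 3 and 1 with a median of 0.04. Beside Hspe1 these were Dnajc19, which encodes the J-domain protein of the import motor of the inner membrane, and Dnajc11, which encodes a protein of the outer membrane linked to crista formation. Dnajc19 was at 14.5, 23.0 and 19.5 FPKM in input and 29.7, 54.4 and 68.1 in IP on the control diet, and at 16.5, 15.8, 14.3 and 16.9 against 49.8, 49.0, 59.2 and 39.1 on high-fat diet. All IP libraries exceeded all input libraries (1.44 ± 0.18, adjusted p = 1.6e-05). Dnajc11 was at 3.84, 3.67 and 5.76 in input and 22.0, 10.4 and 38.2 in IP on the control diet, and at 9.26, 5.42, 4.85 and 5.38 against 11.02, 8.07, 17.6 and 14.005 on high-fat diet. The fractions overlapped on high-fat diet through 1 input library, and the log2 change was 1.46 ± 0.28 (adjusted p = 0.00055). Dnajc15, Dnajc28, Dnajc30, Hspa9 and Hspd1 did not pass. Among the 9 members listed for the endoplasmic reticulum, Dnajc25 was higher, Dnajc1 and Dnajb14 lower, and 6 did not pass. Dnajc14, which was also higher, was not on this list. Of the 9 listed, 1 was higher and 5 were lower when scaled without mitochondrially encoded genes, and with quantile normalization 1 and 4. Dnajb14 lost its call in 15 of 25 alternative settings, among them the fit with the pool as a fixed block (adjusted p = 0.054). Dnajc25 was at 5.53, 5.73 and 5.28 FPKM in input and 8.89, 10.5 and 15.7 in IP on the control diet, and at 6.78, 5.77, 5.35 and 6.13 against 13.5, 17.4, 25.7 and 17.4 on high-fat diet. No value was shared between the fractions on either diet (1.19 ± 0.19, adjusted p = 0.00015).

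TRiC holds its different subunits in equal number, and the messages of the 7 that were members went different ways. Tcp1, Cct4 and Cct2 were higher, Cct7 was lower, and Cct3, Cct5 and Cct8 did not pass. With quantile normalization 2 were higher and 3 lower, and scaled without mitochondrially encoded genes 1 and 3. Tcp1 FPKM was 50.7, 46.1 and 53.2 in input and 135, 91.7 and 154 in IP on the control diet, and 55.3, 45.6, 54.1 and 48.1 against 136, 87.3, 87.7 and 77.7 on high-fat diet. Every IP library exceeded every input library (1.09 ± 0.15, adjusted p = 3.2e-05). Cct4 was at 8.98, 15.1 and 12.7 in input and 97.5, 15.3 and 27.2 in IP on the control diet, and at 12.2, 10.3, 10.2 and 12.8 against 31.1, 17.9, 13.3 and 15.7 on high-fat diet. The fractions were apart, with the IP library NCD 0 far above the others (1.06 ± 0.32, adjusted p = 0.015). Cct5 was at 17.8, 16.1 and 17.2 in input and 35.6, 24.9 and 60.4 in IP on the control diet, and at 17.3, 19.4, 21.1 and 21.3 against 9.69, 30.7, 16.8 and 22.3 on high-fat diet. The fractions were apart on control diet and overlapped on high-fat diet (0.50 ± 0.24, adjusted p = 0.10). Cct2 (0.76 ± 0.29, adjusted p = 0.046) lost its call in 19 of 25 alternative settings. Cct7 fell by 0.50 ± 0.17 on the log2 scale (adjusted p = 0.026), from 16.9 to 20.4 FPKM in input to 9.47 to 17.1 in IP. With the pool as a fixed block Cct7 lost its call (adjusted p = 0.054) and Cct3 gained one (-0.96, adjusted p = 0.048). Tcp1 over Cct7, a member called higher over one called lower, was 2.35 to 3.27 in input and 4.71 to 14.3 in IP. This ratio follows from that choice and was not tested. Cct6a, the subunit gene that is not a member, had a log2 change of -0.04 ± 0.19. Tcp1 overlaps with exons of Acat3 and Mrpl18 on the other strand, so its value may hold reads of these genes.

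The J-domain genes held members far to both sides, from Dnajc1 to Dnajc12. Of 3 Dnaja genes 0 were higher and 1 lower, of 9 Dnajb genes 1 and 3, and of 23 Dnajc genes 8 and 2. The Dnajc genes had 5 higher and 6 lower with quantile normalization, and 4 and 5 when scaled without mitochondrially encoded genes, where their median log2 change moved from 0.44 to -0.04. Dnajb4, a cytosolic partner of Hsp70, was at 40.4, 38.3 and 41.3 FPKM in input and at 97.2, 95.8 and 66.9 in IP on control diet. On high-fat diet it was at 42.4, 48.0, 57.4 and 66.2 against 95.4, 87.0, 104 and 111. Each IP value lay above each input value (0.99 ± 0.13, adjusted p = 2.8e-05). Dnajb1, the main heat-inducible J-domain partner of Hsp70, went the other way. It was at 24.5, 26.98 and 31.6 in input and 8.49, 18.03 and 10.4 in IP on the control diet, and at 22.7, 27.2, 35.4 and 31.9 against 26.8, 15.8, 13.7 and 20.0 on high-fat diet. The IP library HFD 0 alone overlapped with input (-0.89 ± 0.20, adjusted p = 0.0019). Dnajb2, a neuronal J-domain gene, had a log2 change of -0.73 ± 0.26 (adjusted p = 0.035) whereas Dnaja1 was at 113, 110.3 and 128 in input and 69.8, 98.0 and 116 in IP on the control diet, and at 101, 126, 134 and 146 against 84.3, 91.5, 118 and 84.8 on high-fat diet. The fractions of Dnaja1 overlapped on both diets (-0.38 ± 0.14, adjusted p = 0.039), and its call was lost in 13 of 25 alternative settings.

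Among the Dnajc genes, Dnajc12 is known in humans as a partner of the aromatic amino acid hydroxylases. It was at 1.65, 1.54 and 2.85 FPKM in input and 5.53, 6.47 and 11.3 in IP on the control diet, and at 1.39, 2.37, 1.84 and 2.80 against 33.0, 3.94, 3.70 and 6.72 on high-fat diet. All IP libraries exceeded all input libraries (1.52 ± 0.40, adjusted p = 0.0057). Dnajc1, which encodes a J-domain protein of the endoplasmic reticulum membrane, fell most, here and in 23 of 25 alternative settings. Its FPKM was 4.99, 7.44 and 6.13 in input and 0.0222, 0.858 and 0.0694 in IP on the control diet, and 7.62, 10.3, 8.59 and 5.89 against 3.38, 10.4, 2.26 and 0.678 on high-fat diet. The IP library HFD 1 was as high as the highest input library, and the log2 change was -1.82 ± 0.36 (adjusted p = 0.00077). Dnajc13, which acts on endosomes, had a change of -1.29 ± 0.41 (adjusted p = 0.019), and Dnajc8, whose product is found with splicing factors, one of 0.82 ± 0.16 (adjusted p = 0.00067). Dnajc14, Dnajc27 and Dnajc5 were also higher, of which Dnajc27 turned to -0.061 with quantile normalization and to -0.0063 when scaled without mitochondrially encoded genes.

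The synaptic J-domain genes lay closer to input. Dnajc5, the cysteine string protein of synaptic vesicles, was at 56.0, 45.9 and 54.0 FPKM in input and 94.3, 59.8 and 74.6 in IP on the control diet, and at 47.8, 49.6, 50.02 and 49.9 against 47.1, 56.2, 56.9 and 70.3 on high-fat diet. The fractions were apart on control diet and overlapped on high-fat diet, with a log2 change of 0.37 ± 0.13 (adjusted p = 0.034). It turned to -0.33 with quantile normalization and to -0.19 when scaled without mitochondrially encoded genes. Dnajc6, which encodes auxilin, was at 61.97, 66.7 and 62.9 in input and 117, 94.4 and 70.9 in IP on the control diet, and at 65.0, 56.5, 60.7 and 64.1 against 42.6, 72.8, 95.2 and 79.9 on high-fat diet. The IP library HFD 0 lay below every input library and the others above their own diet's input, and Dnajc6 did not pass (0.35 ± 0.17, adjusted p = 0.10).

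Of the small heat shock protein genes, Hspb11 and Hspb6 were higher and Hspb8 did not pass. Hspb11, in spite of its name, encodes a subunit of the intraflagellar transport complex of cilia. Its FPKM was 1.74, 4.11 and 4.11 in input and 33.2, 8.41 and 6.16 in IP on the control diet, and 2.93, 6.13, 5.37 and 3.60 against 34.1, 16.9, 14.3 and 14.5 on high-fat diet. The fractions were apart on each diet, with the IP libraries of index 0 highest, and the log2 change of 1.77 ± 0.35 was the highest of the members (adjusted p = 0.00072). It was the highest in 21 of 25 alternative settings. Without both IP libraries of index 0 it was 1.29, below 1.60 for Dnajc19, and after correction for transcript length 0.72, below 1.54 for Dnajc12. Hspb6, which encodes Hsp20, was at 6.80 to 10.7 FPKM in input and 10.8 to 21.5 in IP (0.65 ± 0.18, adjusted p = 0.0076), and overlaps with exons of Lin37 and Proser3 on the other strand. Hspbp1, which encodes an exchange factor for Hsp70, did not pass (0.76 ± 0.31, adjusted p = 0.059).

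The genes listed as heat-inducible did not share a direction. Of 8 in the table, 7 were tested, of which Hspa8 and Hspe1 were higher, Hsp90aa1, Dnajb1 and Dnaja1 lower, and Hsph1 and Hspd1 did not pass. The list holds Hspa8 although it is mainly constitutive, and without it 1 of 6 was higher and 3 were lower. With quantile normalization 1 of the 7 was higher and 6 were lower, and scaled without mitochondrially encoded genes 1 and 4. The 13 tested members with a pair of heat shock repeats in the promoter window had a median log2 change of 0.54. Of these, 5 were higher and 1 lower (background 23.4% and 20.5% of all tested genes). That median was 0.09 with quantile normalization (3 higher, 3 lower), -0.0063 when scaled without mitochondrially encoded genes (2 and 2) and 0.28 after correction for transcript length. The 35 tested members whose window held no pair had a median of 0.10, with 6 higher and 7 lower, and medians of -0.35, -0.44 and 0.0089 in the same settings. Members without a promoter window, among them Hspa8, Hsp90ab1 and Hsp90aa1, are in neither group. The medians of both groups are descriptions, and the difference was not tested.

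Transcript length moved with the change from input to IP. Spearman's rho between length and log2 change was -0.40 over the 60 members and -0.41 over 12468 genes, as descriptions across genes that share the same libraries. The 4 members up to 1000 bases had a median change of 1.47 (all genes of this class, 1.17), the 13 from 1001 to 2000 bases 0.50 (0.40), the 27 from 2001 to 4000 bases 0.15 (0.00) and the 16 above 4000 bases -0.31 (-0.40). Hspb11, Dnajc19 and Hspe1, 3 of the 5 genes with the largest rise, have transcripts of 608, 659 and 774 bases. After a correction for length 13 members were higher and 7 lower (background 37.8% of 12468 genes called, 2511 higher and 2197 lower). Hspe1 then kept its call at a smaller log2 change of 0.60, whereas Hspb11, Hspb6, Dnajc19, Dnajc8, Cct2, Dnajc13, Dnajb14 and Dnaja1 did not pass.

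**Figure D4:**
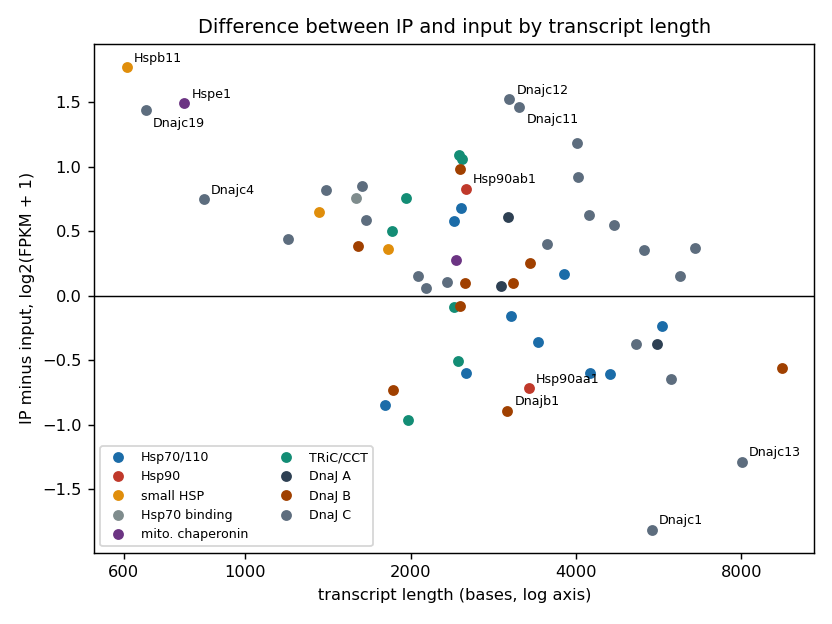
Log2 change from input to IP against transcript length on a log axis, for the 60 tested members, coloured by family. The 4 members up to 1000 bases had a median of 1.47 and the 16 above 4000 bases one of -0.31.

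Co-chaperones and folding factors outside the members had log2 changes from -1.12 to 2.72. Of 43 listed genes 42 were tested, of which 15 were higher, 7 lower and 20 did not pass, and the median log2 change of the tested genes was 0.06. The background over all tested genes was 23.4% higher and 20.5% lower. With quantile normalization 14 of the listed genes were higher and 13 lower (background 2828 and 3439 of 12478 genes). Scaled without mitochondrially encoded genes, 11 were higher and 14 lower (background 1753 and 4863). After correction for transcript length 14 were higher and 6 lower (background 2511 and 2197 of 12468 genes), and the largest log2 change was 1.92. The values below are without this correction. Prefoldin, which delivers actin and tubulin to TRiC, had 5 of 6 subunit genes higher, with Pfdn1 at 2.49 ± 0.31, Pfdn5 at 2.44 ± 0.20 and Pfdn6 at 2.12 ± 0.36, while Vbp1 did not pass. Naca, a subunit of the complex that meets nascent chains at the ribosome, rose by 2.72 ± 0.28 (adjusted p = 1.4e-06) and its partner Btf3 by 1.24 ± 0.17. Of the partners of Hsp90, Ptges3 (1.298 ± 0.17), Fkbp4 (1.16 ± 0.23) and Ahsa1 (0.94 ± 0.20) were higher, and Cdc37l1 (-0.74 ± 0.12) and Chordc1 (-0.58 ± 0.15) lower. Among the Bag genes, whose products exchange the nucleotide of Hsp70, Bag1 rose by 1.72 ± 0.12 (adjusted p = 2.7e-08), and Bag2 fell by 1.12 ± 0.31 on the log2 scale. Sec63, which works with Hsp70 in the endoplasmic reticulum, had a change of -0.95 ± 0.16. Hsbp1, which binds heat shock factor, was at 1.78 ± 0.13, Hsf2 at -0.91 ± 0.30 (adjusted p = 0.021), and Hsf1 did not pass (-0.60 ± 0.35, adjusted p = 0.19).

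On control diet alone, 13 members were higher in IP and 2 lower (background 26.6% of genes, 15.7% higher and 10.8% lower), with a median log2 change of 0.38. On high-fat diet 11 were higher and 4 lower (background 33.6%, 19.0% higher and 14.6% lower), with a median of 0.19. The control-diet count of higher members was 8 without any of the 3 control-diet input libraries, and that of lower members 5 without the IP library NCD 0. With the pool as a fixed block, 10 were higher on control diet, without Cct4, Dnajc25 and Hspb11. The high-fat count of lower members was 2 without any of the 4 high-fat input libraries and 9 without the IP library NCD 0, through the shared estimate of spread. Hspa8 passed on control diet (0.85, adjusted p = 0.00089) and not on high-fat diet (0.30, adjusted p = 0.096), and Hsp90aa1 passed on high-fat diet (-1.07, adjusted p = 0.0035) and not on control diet (-0.36, adjusted p = 0.38). The difference between the diets was tested for every gene. It passed for 0 members and for 1 of 12478 genes (0.00801%), with 844 genes (6.76%) and 4 members below an unadjusted p of 0.05. Hspa8 had the smallest p of the members, with a difference of -0.55 ± 0.20 (adjusted p = 0.66), followed by Cct5 (-1.203 ± 0.47, adjusted p = 0.70), Dnajb12 (1.23 ± 0.49, adjusted p = 0.70) and Dnaja2 (-1.40 ± 0.57, adjusted p = 0.71). For Hsp90aa1 the difference was -0.71 ± 0.38 (adjusted p = 0.75), and it passed without the IP library NCD 1, at -1.16 ± 0.23 (adjusted p = 0.034), and in no other setting run.

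The effect of 3 days of high-fat diet was compared within each fraction. No member passed in either, as was the case for every gene (background 0.0% in IP and in input, limma, adjusted p below 0.05). In IP 713 genes (5.71%) and 4 members had an unadjusted p below 0.05, and in input 714 genes (5.72%) and 1 member. The median log2 difference of the members was -0.01 in IP and 0.04 in input. In IP the smallest p belonged to Dnaja2, a cytosolic J-domain gene, which was at 118, 24.3 and 61.5 FPKM on control diet and at 33.0, 18.003, 11.7 and 19.5 on high-fat diet. The diets overlapped, and the difference was -1.50 ± 0.52 (adjusted p = 0.81). Dnajb12, a J-domain gene of the endoplasmic reticulum membrane, was at 0.797, 1.34 and 2.41 on control diet and at 7.76, 3.93, 4.01 and 7.43 on high-fat diet. These groups were apart, with a difference of 1.43 ± 0.56 (adjusted p = 0.81). Hspa1l, a gene of the Hsp70 family known from testis, was at 2.54e-07, 4.34 and 1.70 in IP on control diet and at 11.2, 1.28, 8.56 and 9.95 on high-fat diet, with overlap (1.59 ± 0.78, adjusted p = 0.81). The IP values of Dnajc1, Hspe1, Cct5, Hsp90aa1 and Hsph1 given above overlapped between the diets, with differences of 1.68 ± 0.66 for Dnajc1, 0.50 ± 0.33 for Hspe1, -1.002 ± 0.45 for Cct5, -0.75 ± 0.35 for Hsp90aa1 and -0.58 ± 0.30 for Hsph1 (adjusted p from 0.81 to 0.84). Dnajc7, a partner of both Hsp70 and Hsp90 and among the members with the smallest p for the difference between the fractions, was at 43.2, 30.9 and 36.9 in input and 47.3, 25.7 and 28.6 in IP on control diet. On high-fat diet it was at 39.1, 32.1, 32.1 and 32.1 in input and at 45.9, 39.9, 52.7 and 39.3 in IP. Its diets overlapped in both fractions, and the difference of the diet effects was 0.54 ± 0.31 (adjusted p = 0.76). Dnajc7 overlaps with exons of Cnp and Nkiras2 on the other strand, so its value may hold reads of these genes.

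**Figure D5:**
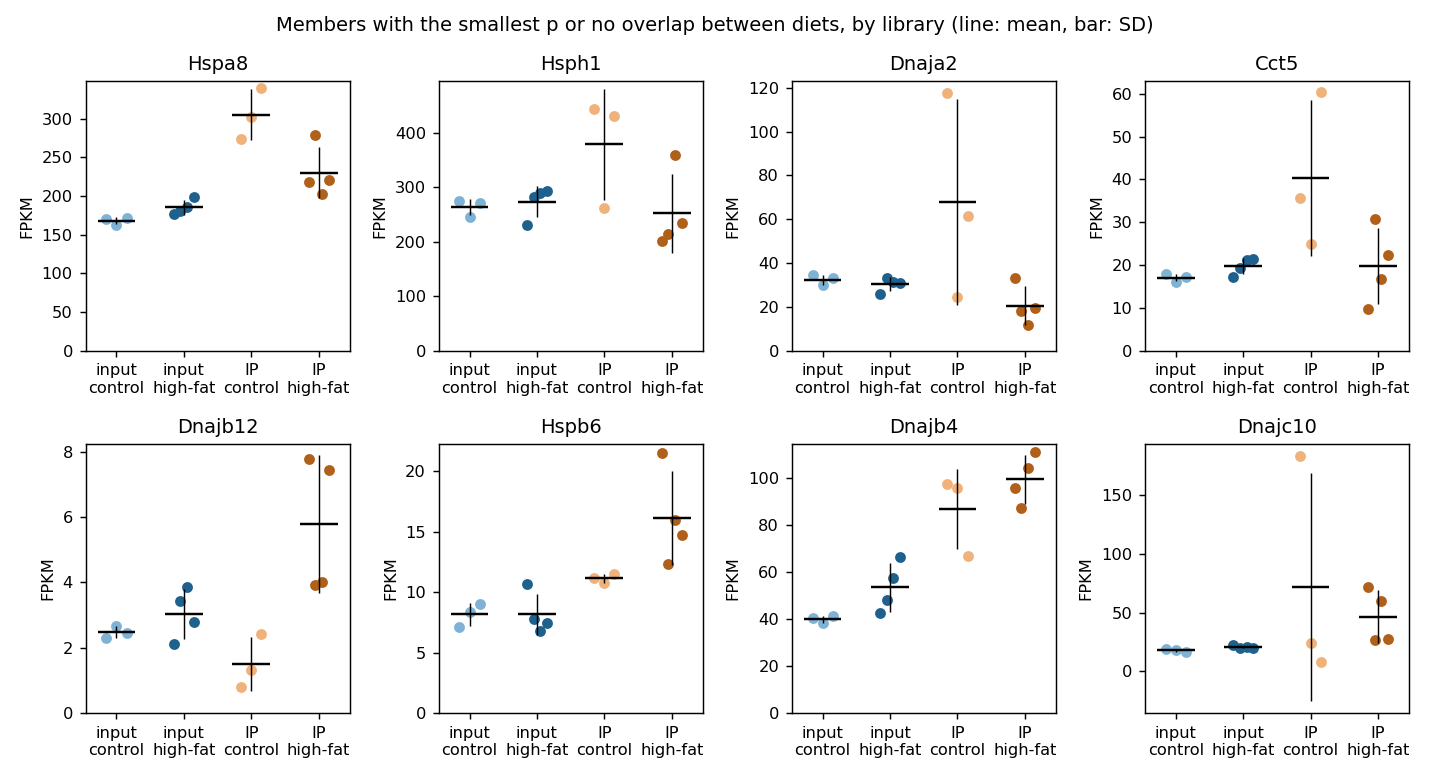
FPKM by library in input and IP on each diet for members with a small p or no overlap in the diet comparisons, where lines are means and bars are SD. The diets did not overlap for Dnajb12 and Hspb6 in IP, or for Dnajb4, Dnajc10 and Hspa8 in input.

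Groups without overlap between the diets were about as frequent as among all genes. In IP 2 members were higher on high-fat diet in every library, Dnajb12 and Hspb6 (background 3.21%), and 0 were lower (background 3.13%). In input 3 were higher, Dnajb4, Dnajc10 and Hspa8 (background 3.05%), and 0 lower (background 3.76%). Dnajb4 in input was at 40.4, 38.3 and 41.3 FPKM on control diet and 42.4, 48.0, 57.4 and 66.2 on high-fat diet, a difference of 0.39 ± 0.14 (adjusted p = 0.84). Dnajc10, an enzyme that reduces disulfides in the endoplasmic reticulum, was at 19.4, 17.996 and 16.9 against 22.4, 19.6, 20.7 and 20.0 (0.18 ± 0.09, adjusted p = 0.84). Hspa8 in input was at 170.5, 163 and 171 against 177, 180.2, 186 and 199 (0.14 ± 0.07, adjusted p = 0.86). The members with the smallest p on the lower side overlapped between the diets in input. Dnajc14 was at 20.9, 19.9 and 13.1 FPKM against 15.5, 12.4, 12.4 and 15.7 (-0.32 ± 0.16), Dnajb14 at 37.8, 42.9 and 36.9 against 35.4, 35.5, 35.1 and 37.4 (-0.12 ± 0.08), and Hspa14 at 4.04, 7.65 and 7.37 against 5.50, 4.79, 4.42 and 4.47 (-0.31 ± 0.19), with adjusted p from 0.86 to 0.89.

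In the authors' deposited table, 4 members had a p below 0.05 for the diet comparison of IP to input ratios, against 418 of all 14531 entries (2.88%). The authors' deposited table gives Hspa8 a p of 0.0156 with a log2 change of -0.54, Hspb6 0.0238 with 0.53, Dnajc7 0.0355 with 0.55, and Dnajc8 0.0428 with -0.55. Those p-values are not adjusted for the number of genes.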

How the data were processed

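RNA of phosphorylated-S6 precipitates and of input lysate was measured by RNA sequencing in 14 libraries (3 pools per fraction on control diet, 4 on high-fat diet). Per the labels' protocols, cDNA synthesis was primed with random as well as poly(T) primers, and strand is not marked by the library kit. The deposited values are FPKM, called normalized by the authors, and how libraries were scaled to each other is not given in the sources used here. The tools named per the submitters' processing notes are Cuffdiff, Cufflinks 2.2.1, StringTie 1.3.4d and HISAT2 2.1.0, with GRCm38.p6 as the genome build. Per the file headers, the authors also deposited a ratio of IP to input FPKM per column index, a p-value, and a log2 fold change, treated as a score because some of its values are far outside the usual range of log2 values. The ratio equalled the quotient of the FPKM columns in all 96385 entries checked, within a relative tolerance of 0.001. Read depth is unknown, so no counting intervals are given. The p-values measure the spread between these pools.

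Genes with a mean of at least 1 FPKM were tested as log2(FPKM + 1) in R 4.3.3 by limma 3.58.1, whose empirical Bayes variance followed a trend, on the 12478 genes, two-sided, with Benjamini-Hochberg adjustment and a threshold of 0.05. IP was compared with input, and the diet effects between fractions, in 1 fit of all 14 libraries, and the diets within each fraction. The fold change on this scale is understated for genes near or below 1 FPKM. The pipeline was tested on simulated data, in which false calls were somewhat more frequent than the threshold allows. The noise was drawn from SDs moderated by limma, and a first run with each gene's own SD gave more false calls. Far fewer genes were changed in the simulation than were called in the data, so its share of false calls may not carry over. The fits treated IP and input libraries as independent, except those with a block for the pool. For that block, IP and input of the same diet and index were taken as 1 pool, because the authors' deposited ratio divides them so. Their deviations from the group means correlated by -0.004 to 0.058 over all genes, best with the own index in 6 of 7 pools. Genes named with values in every library are up to 8 members per direction with the largest change among those past the threshold without overlap in either diet, up to 4 per direction with the smallest p in each diet comparison, and a fixed set of well-known members. Other members named with single values were picked after their values were seen. Of the listed co-chaperones, up to 4 per direction were named by smallest p, and the others after their values were seen. The members and lists were chosen with earlier results of these data known. Gene positions and transcript lengths came from GENCODE M21. Of the members, 21 overlap with exons of another gene on the opposite strand and 8 on the same strand, and 7 have pseudogenes named after them, so their values are less certain. The promoter windows came from RefSeq, without an entry for Cct4, Dnajc11, Dnajc12, Dnajc18, Dnajc2, Dnajc30, Dnajc5, Hsp90aa1, Hsp90ab1, Hspa13, Hspa8 and Hspa9. The alternatives were another pseudocount, other filters, 3 other scalings, array weights, leaving out libraries, a block for the pool and a correction for transcript length.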

Additional observations from a re-analysis of the deposited data

Results flagged for a closer look

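In groups of 4 libraries, the gap from the highest or lowest library to its neighbour was compared with Dixon's critical value for a group of that size. Of 58 groups looked at, 4 exceeded it, and chance alone flags about 1 in 20. In each the library of index 0 stood apart. Dnajc12 in IP on high-fat diet was at 33.0 FPKM in that library and at 3.70 to 6.72 in the others. Hspb11 in IP on high-fat diet was at 34.1 FPKM in that library and at 14.3 to 16.9 in the others. In input on high-fat diet, Dnajc7 was at 39.1 FPKM against 32.1 in each of the others, and Hsph1 was lowest, at 231 FPKM against 282 to 292. These input and IP libraries also held the highest share of mitochondrially encoded FPKM of their group, 39.1% in input and 12.8% in IP, and the part of this in the values was not tested. Without the IP library HFD 0, Dnajc12 and Hspb11 kept their calls in IP against input.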

How the results depend on the processing

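In IP against input, the fit of log2(FPKM + 1) gave 17 members higher, 9 lower and a median log2 change of 0.31 over both diets, 13, 2 and 0.38 on control diet, and 11, 4 and 0.19 on high-fat diet. With quantile normalization the lower members were 23 and the median -0.11 over both diets, 4 were higher, 14 lower and the median -0.12 on control diet, and 18 were lower with a median of -0.27 on high-fat diet. Scaled without mitochondrially encoded genes, 8 were higher, 22 lower and the median was -0.24 over both diets, then 3, 14 and -0.11 on control diet and 4, 17 and -0.35 on high-fat diet. Over both diets, on control diet and on high-fat diet, quantile normalization called 50.2%, 31.7% and 39.4% of all genes. Scaling without mitochondrially encoded genes called 53%, 34.1% and 42.3%. Median-ratio scaling gave a median of 0.22 over both diets, and 7 members lower with a median of 0.11 on high-fat diet (background 34.3% of genes called). Correction for transcript length gave medians of 0.15 over both diets and 0.14 on control diet. Array weights gave 10 members lower on high-fat diet (background 45.4% called). Without both IP libraries of index 0, 6 were lower on control diet and 8 on high-fat diet (background 40.1% and 45.5% called). With only the libraries of that diet in the fit, 8 were higher and 1 lower on control diet, and 7 lower on high-fat diet (background 16.3% and 39.9% called). Leaving out 1 library at a time gave 14 to 24 higher, 5 to 11 lower and medians of 0.25 to 0.35 over both diets, 8 to 16, 2 to 5 and 0.24 to 0.46 on control diet, and 8 to 15, 2 to 9 and 0.18 to 0.25 on high-fat diet, while the difference of the diet effects had 0 members higher and 0 to 1 lower (Hsp90aa1 without the IP library NCD 1), and the diet comparisons had 0. Of all genes, leaving out 1 library at a time called 37.5% to 49.7% over both diets, 17.2% to 32% on control diet and 26.2% to 41.3% on high-fat diet. The cause of these shifts was not tested. Single members turned with quantile normalization (Hspa8 -0.55, Hsp90ab1 -0.36, Dnajc5 -0.33 and Dnajc27 -0.061). Of the members without a call in the fit of log2(FPKM + 1), Dnajc6 (-0.41), Hspd1 (-0.39) and Hsph1 (-1.03) turned too. In this setting Hspa8, Hsp90ab1, Hspd1 and Hsph1 passed the threshold as lower. Scaled without mitochondrially encoded genes, Dnajc5 (-0.19) and Dnajc27 (-0.0063) turned. So did Cct5 (-0.034), Dnajc6 (-0.20), Hspd1 (-0.27) and Hsph1 (-0.40), which had no call in the fit of log2(FPKM + 1). Of 17 higher calls 5 held in every alternative, and of 9 lower calls 4.

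With a replicate block, the pool as a correlated term gave 17 higher and 9 lower over both diets and changed 0 calls of members in any comparison of IP with input. The pool as a fixed term gave 16 and 8 over both diets (Cct2, Cct7 and Dnajb14 lost, Cct3 gained), 10 and 2 on control diet, and 10 and 3 on high-fat diet (Cct7 and Hspa1l lost). Between the diets an index marks no shared pool, and the block by column index called 0 members in IP and in input. The read depth of these FPKM is unknown, and the 3 and 4 pools per group limit the precision.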

Other observations

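By correlation of log2(FPKM + 1) over the 14 libraries, the genes most like Hspa1a were March3 (0.92), Gm45901 (0.89), Ercc1 (0.85), Vcp (0.85) and Cggbp1 (0.84). Hspa1a was highest in the IP library HFD 2, and without that library the values were 0.76 for March3, 0.64 for Gm45901, 0.67 for Ercc1, 0.49 for Vcp and 0.73 for Cggbp1 over 13 libraries. Hspa4l, which was not tested, was at 5.43 FPKM in the input library NCD 1 and between 0.142 and 1.55 in the other 13 libraries. Hspa8 over Dnajb1 was 5.25 to 7.78 in input and 8.13 to 32.8 in IP, and Hspa8 over Hspa4 was 2.15 to 2.65 in input and 3.72 to 7.48 in IP, both without overlap and chosen after the values were seen.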
